A study of Mus musculus with 1824 samples.

Results

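Extraembryonic ectoderm cells of E7.5 mouse embryos were selected on their own transcripts, as cells with at least 100000 reads and at least 3 of 6 genes (*Elf5*, *Rhox5*, *Rhox6*, *Rhox9*, *Ascl2* and *Wfdc2*) at 20 CPM (counts per 1000000 counts of the cell) or more. The rule took 87 of the 1824 wells in the whole series, which were 9.10% of the E7.5 cells that had enough reads, from 11 E7.5 plates of 96 wells. Those 87 cells are called members here, and the remaining E7.5 cells of at least 100000 reads are called other cells. Because the rule was chosen by these readouts, every difference between members and other cells is a description and carries no test.

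Plates whose names carry the word chimera came from chimaeric embryos, made by injecting fluorescently labelled *Tet1*, *Tet2* and *Tet3* triple-knockout embryonic stem cells into C57BL/6J blastocysts and transferring these to CD1 females, and the labels give the strain CD1 for every cell. Single cells were sorted into plates of 96 wells and lysed, and polyadenylated RNA was read with the Smart-seq2 chemistry. The labels give 11 E7.5 plates (chimera plate 3, embryos 1, 2, 4 and 5, and plates 1 to 6, called lane plates here) and 8 E8.5 plates. They do not say which cells came from the injected line and which from the host, so no genotype is compared here, and genotype cannot be told apart from cell type. For the chimaeras it profiled by single-cell RNA sequencing alone, the paper reports that labelled cells did not contribute to extraembryonic ectoderm. If that held on the embryo plates, whose names carry the word chimera, members were host cells. Other cells could then mix host and injected cells, which was not tested.

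Members were unevenly spread over the plates. The plate labelled embryo 4 held 45 members among 91 cells of enough reads, 49.5% (95% Clopper-Pearson interval 38.8 to 60.1%). The plate labelled embryo 5 held 30 among 88, 34.1% (24.3 to 44.97%). Lane plates 5 and 6 held 5 members each, 7.69% of 65 cells and 6.02% of 83 cells. Lane plate 4 and the plate labelled embryo 1 held 1 each, and the other 5 plates held none of 84 to 94 cells, which allows a share of up to 3.85 to 4.30% by the same interval. These intervals cover counting error only. For its single-cell multi-omics the paper describes sorting populations by KDR and CD41 staining from E7.5 and E8.5 embryos. How each plate was gated was not given in the sources used here, so the shares need not be those of whole embryos. At E8.5 the rule was met by 1 cell, on plate 7, and 2 wells of under 100000 reads on the embryo 5 plate also carried enough of the genes. The embryo 4 and embryo 5 plates alone had at least 10 members and 10 other cells each, so the comparisons across genes rest on them.

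**Figure D1:**
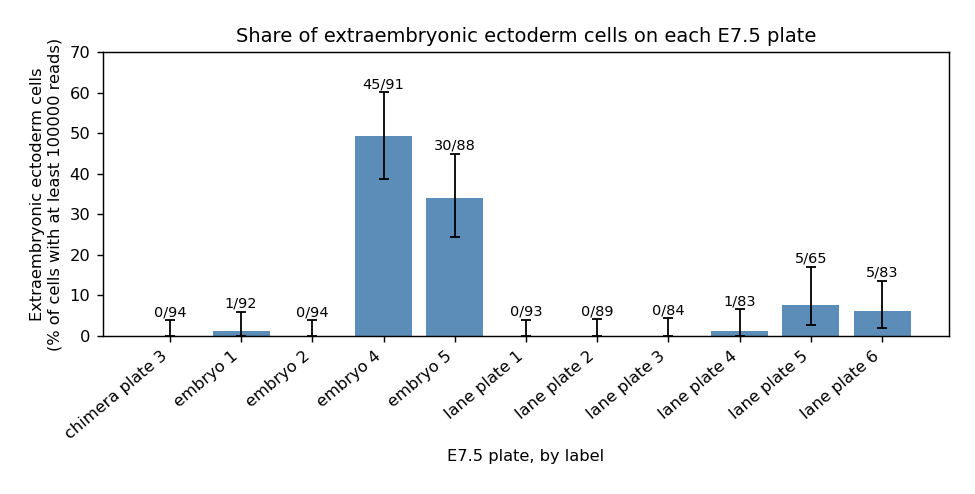
Bars give the share of extraembryonic ectoderm cells (y axis, percent of cells with at least 100000 reads) on each of the 11 E7.5 plates (x axis), with 95% Clopper-Pearson intervals and members over cells printed above. The embryo 4 plate (45 of 91) and the embryo 5 plate (30 of 88) stand above the rest, followed by lane plates 5 and 6 with 5 members each.

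Both main plates held members with *Xist* RNA and members with Y-linked RNA. *Xist*, the RNA of the inactive X chromosome, and the Y-linked genes *Ddx3y*, *Eif2s3y*, *Kdm5d* and *Uty* were nearly exclusive of each other. Among the 45 members of the embryo 4 plate, 23 had *Xist* at 20 CPM or more with the Y-linked sum under 5 CPM, and 17 had the reverse. The 30 members of the embryo 5 plate held 15 and 12 such cells. Both signals reached 20 CPM in 2 and 1 members, and no doublet caller was run. The plate names are therefore used as labels only, and each plate is treated as 1 sample.

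The members had a median of 596270 reads (range 128433 to 1438138), none exceeded 10% mitochondrial or 20% ribosomal protein reads, and no member repeated another's counts. After thinning each cell to 100000 reads, members showed a median of 7705 detected genes on the embryo 4 plate (5790 to 8658) against 7407 in other cells (5644 to 8619). The medians on the embryo 5 plate were 7259 (4530 to 7969) and 7434.5 (2988 to 8362). Members and other cells overlapped in this measure. No member carried 4 of 5 epiblast markers (*Pou5f1*, *Utf1*, *Fgf5*, *Slc7a3* and *Pim2*) or 4 of 6 visceral endoderm markers (*Ttr*, *Apoa1*, *Apoa4*, *Amn*, *Afp* and *Cubn*) at 20 CPM, the rule by which epiblast and visceral endoderm cells are named below.

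Extraembryonic ectoderm is the trophoblast tissue that caps the epiblast after implantation and later gives rise to the chorion and, through the ectoplacental cone, to the trophoblast of the placenta. Its stem-like state is kept by fibroblast growth factor (FGF) and Nodal signals from the epiblast acting through factors such as *Cdx2*, *Eomes*, *Esrrb*, *Elf5* and *Tfap2c*, and in return it sends bone morphogenetic proteins (BMPs) that act on the epiblast. *Elf5* encodes an ETS factor whose promoter is methylated in embryonic lineages and unmethylated in trophoblast, *Ascl2* an imprinted basic helix-loop-helix factor of the ectoplacental lineage, *Rhox5*, *Rhox6* and *Rhox9* homeobox proteins of a cluster on the X chromosome, and *Wfdc2* a secreted whey acidic protein-domain protein.

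Since the *Elf5* promoter is known to be methylated in embryonic lineages, the sequences around the start sites of 3 of the rule's genes are shown. They come from the RefSeq promoter table on GRCm38.p6 (250 bases before to 50 after the start, read along the gene). CG dinucleotides are in capitals. *Elf5* has 2 annotated starts, at chr2:103411848-103412147 and chr2:103423818-103424117 (plus strand), *Rhox5* 1 at chrX:37754358-37754657 (plus strand), and *Ascl2* 1 at chr7:142969215-142969514 (minus strand).
Elf5 start 1: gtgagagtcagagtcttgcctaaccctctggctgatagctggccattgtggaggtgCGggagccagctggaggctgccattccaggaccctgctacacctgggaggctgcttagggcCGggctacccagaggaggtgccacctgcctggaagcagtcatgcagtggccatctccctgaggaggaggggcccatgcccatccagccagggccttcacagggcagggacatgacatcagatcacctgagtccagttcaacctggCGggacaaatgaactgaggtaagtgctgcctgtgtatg
Elf5 start 2: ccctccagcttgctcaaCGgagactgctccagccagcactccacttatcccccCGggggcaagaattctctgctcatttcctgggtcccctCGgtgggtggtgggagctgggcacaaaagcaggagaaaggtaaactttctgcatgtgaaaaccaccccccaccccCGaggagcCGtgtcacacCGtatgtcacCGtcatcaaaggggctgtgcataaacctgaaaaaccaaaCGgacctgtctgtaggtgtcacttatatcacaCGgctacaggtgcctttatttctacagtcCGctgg
Rhox5: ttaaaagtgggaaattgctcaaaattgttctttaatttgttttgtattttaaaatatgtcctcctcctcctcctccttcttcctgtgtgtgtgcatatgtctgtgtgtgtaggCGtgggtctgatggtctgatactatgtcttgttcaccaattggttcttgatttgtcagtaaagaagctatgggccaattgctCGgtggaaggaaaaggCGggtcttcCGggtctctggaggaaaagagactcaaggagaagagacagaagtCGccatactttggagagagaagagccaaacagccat
Ascl2: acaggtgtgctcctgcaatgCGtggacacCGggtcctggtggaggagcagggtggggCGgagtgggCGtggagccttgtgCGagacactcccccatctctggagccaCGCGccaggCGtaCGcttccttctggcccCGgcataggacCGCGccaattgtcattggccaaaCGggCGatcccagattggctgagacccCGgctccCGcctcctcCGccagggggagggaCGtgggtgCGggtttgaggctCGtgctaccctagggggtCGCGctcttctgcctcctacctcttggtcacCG
The windows hold 3 and 10 CG dinucleotides for *Elf5*, 5 for *Rhox5* and 23 for *Ascl2*, beside a median of 7 over all 32851 promoter windows of 27025 genes. As few or fewer were present in 31.4% and 58.6% of windows for the *Elf5* starts, in 43.6% for *Rhox5* and in 80.02% for *Ascl2*. The motif searched was CG, which reads the same on both strands, and methylation itself was not measured in the counts used here.

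The genes of the rule differed in how well they marked the members. *Elf5* (chromosome 2, 103411688 to 103450989, GRCm38) was present in the members' summed reads at 237.95 CPM on the embryo 4 plate (95% Poisson interval 232.5 to 243.5) and 185.4 CPM on the embryo 5 plate (178.9 to 192.2), counting error only. Other cells of these plates had 33.6 and 22.8 CPM, and the other cells of all 11 plates spanned 0 to 33.6 CPM. Per cell, the 45 members of the embryo 4 plate ran from 23.3 through a median of 182.02 to 822.6 CPM, and the 30 of the embryo 5 plate from 0 through 169.4 to 635.9 CPM. Every member of the embryo 4 plate and 27 of 30 on the embryo 5 plate reached 20 CPM, whereas 5 of 46 and 8 of 58 other cells did.

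*Rhox5* was the most widely shared gene of the rule, and the least specific of the Rhox genes. All 75 members of these plates had at least 511.9 CPM, with medians of 1357 and 1566 CPM. It also reached 20 CPM in 18 of 46 and 22 of 58 other cells, and stood at 588.5 and 497.9 CPM in the summed visceral endoderm cells, and its log2 ratio of members over other cells was 1.87 and 2.44. *Rhox6* (89 and 61.2 CPM in members against 5.66 and 0.792 in other cells) and *Rhox9* (32.8 and 21.9 against 0.469 and 1.17) reached 20 CPM in at most 2 other cells of a plate. Reads of these neighbouring paralogues may have been shared between copies by the counting.

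*Ascl2* split the members. Its summed level was 68.3 and 50.8 CPM against 1.47 and 3.65 in other cells, yet the median member had 9.08 and 4.75 CPM and only 16 of 45 and 12 of 30 reached 20 CPM. On the embryo 5 plate 1 cell, well B11, carried 44.7% of the members' *Ascl2* reads. It had *Krt8* at 1749 CPM and no *Esrrb* read. Wells C04 and G10 of embryo 4 and H07 of embryo 5 had *Ascl2* at 480.9, 464.1 and 191.4 CPM. Their *Krt8* was at 2255, 2298 and 2326 CPM, with no *Esrrb* or *Eomes* read. Other wells of embryo 4 fitted this pattern in part. A04 and E05 had *Ascl2* at 309.1 and 262.9 CPM, *Krt8* at 1107 and 1736 CPM and no *Esrrb* read. They kept *Eomes* at 19.3 and 29.2 CPM. C08 and B12 had *Ascl2* at 235.9 and 217.1 CPM and no *Esrrb* read, with *Krt8* at 297.2 and 329.35 CPM. Well C09 of embryo 4, with *Ascl2* at 238.1 CPM, kept *Esrrb* at 29.2. The label is less sure for members with much *Ascl2* and *Krt8* but no *Esrrb*, and an ectoplacental identity was not tested. *Wfdc2* did not set the members apart in summed reads, with 11.9 and 20.9 CPM against 20.9 and 18 in other cells. Per cell, 10 of 45 and 12 of 30 members reached 20 CPM of *Wfdc2*, as did 11 of 46 and 15 of 58 other cells. The median member had 5.26 and 10.02 CPM of *Wfdc2*, and the median other cell 0 on both plates. The 9 epiblast cells of each plate had more of it, 94.6 and 78.2 CPM.

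Cells just inside and just outside the threshold were alike in part. The 25 members of both plates with exactly 3 rule genes (15 and 10) held 23 with at least 3 of 5 trophoblast genes that the rule did not use (*Cdx2*, *Eomes*, *Esrrb*, *Tfap2c* and *Bmp4*) at 20 CPM, 14 and 9 by plate. The 22 cells with exactly 2 rule genes (9 and 13) held 14 such cells, 5 and 9 by plate. Of cells with 1 or none, 4 of 37 and 3 of 45 did. The comparison cells thus include some that carry the same genes. Against cells with 0 or 1 rule genes, a comparison chosen after the data were seen, 2.23% of genes tested instead of 1.13% were at least 4-fold higher in members.

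**Figure D2:**
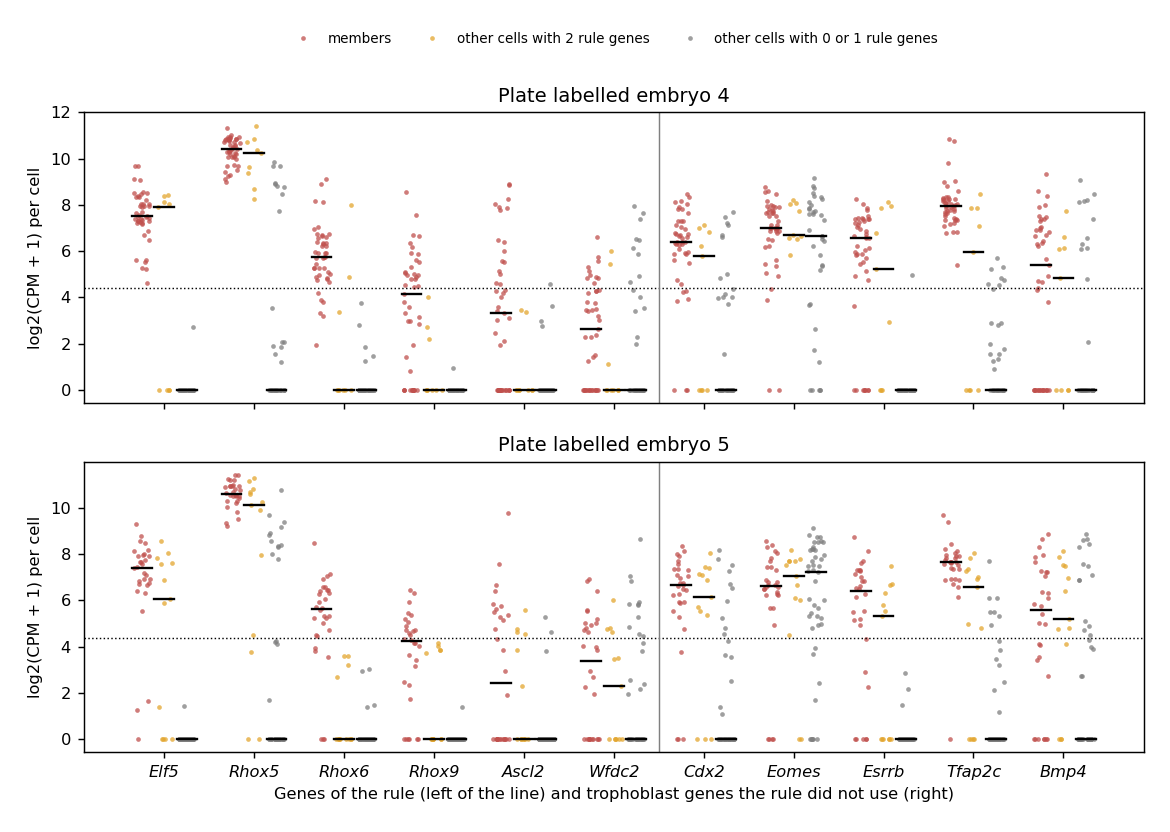
Each point is 1 cell of the embryo 4 plate (top) or embryo 5 plate (bottom), at its log2(CPM + 1) (y axis) for the 6 genes of the rule and 5 trophoblast genes it did not use (x axis). Members are red, other cells with exactly 2 rule genes yellow and those with 0 or 1 grey, black bars are medians and the dotted line is 20 CPM. *Elf5*, *Rhox5* and *Tfap2c* lie above the line in nearly all members, while *Wfdc2* and *Eomes* overlap with the grey cells.

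Across the transcriptome, reads were summed over the cells of a group on a plate, and a gene was counted as different when its log2 ratio of members over other cells, with 1 CPM added to both, was at least 2 or at most -2 on both plates (4-fold). Of 10033 genes with at least 10 CPM in some group, 1.13% were at least 4-fold higher in members on both plates and 5.88% (590 genes) at least 4-fold lower. The higher calls depended on the rule, since with rule genes at 50 CPM 8 genes were called higher (7 of them also called here), with at least 4 of 6 rule genes 15 (13), and with at least 2 of *Elf5*, *Ascl2* and *Wfdc2* 12 (8). The genes with enough reads are called tested below, although no statistical test was run, and folds are ratios with the same 1 CPM added. The median ratio over all genes tested was -0.02 on the embryo 4 plate and -0.05 on the embryo 5 plate. Each list below is read beside these shares, which are those of the contrast the rule used, so nothing is inferred from a list's count.

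**Figure D3:**
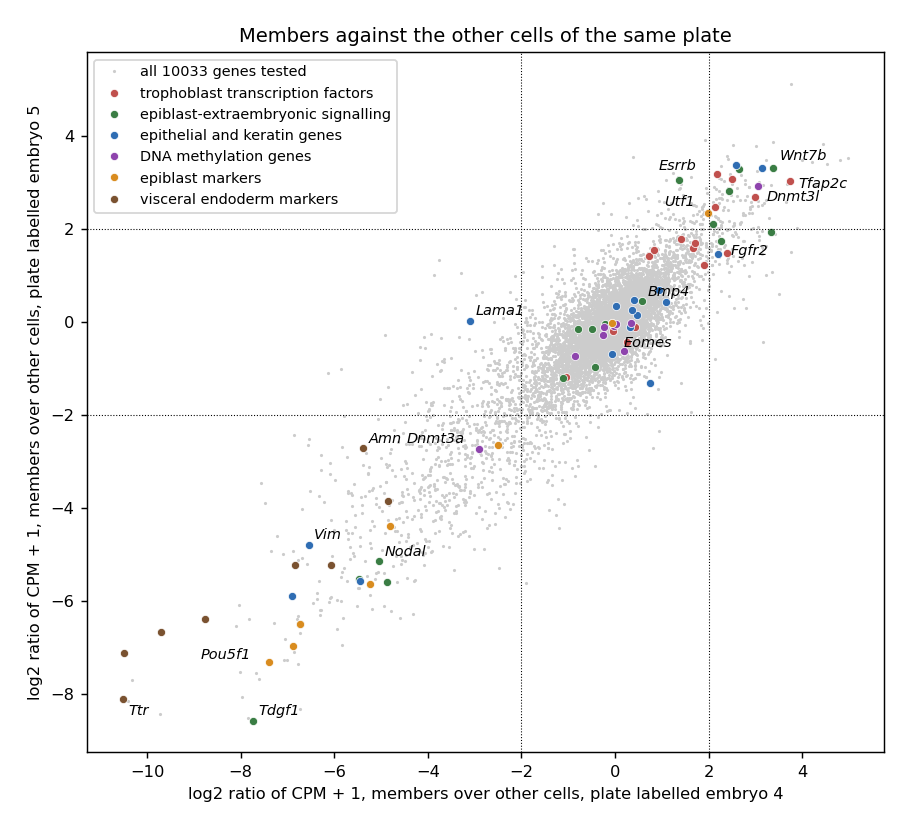
Each point is a gene at its log2 ratio of members over other cells on the embryo 4 plate (x axis) and on the embryo 5 plate (y axis), with 1 CPM added. Grey points are the 10033 genes tested, coloured points the listed groups, and dotted lines mark 4-fold. *Tfap2c*, *Wnt7b* and *Dnmt3l* lie at the upper right, *Ttr*, *Tdgf1* and *Pou5f1* at the lower left, *Bmp4* and *Eomes* near the centre, and *Lama1* differs between plates.

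Of 18 trophoblast transcription factors, 17 were tested, and 5 were at least 4-fold higher in members on both plates (*Esrrb*, *Tfap2c*, *Sox21*, *Zfp42* and *Id2*), none lower. The median log2 ratio of the 17 was 1.68 and 1.59. *Tfap2c*, an AP-2 factor required for trophoblast maintenance, was present at 356.3 and 226.6 CPM in members and 25.8 and 26.8 CPM in other cells, 13.3-fold and 8.18-fold. All 45 members of the embryo 4 plate (40.7 to 1853 CPM, median 244.5) and 29 of 30 on the embryo 5 plate reached 20 CPM. *Esrrb*, an orphan nuclear receptor of trophoblast stem cells, stood at 100.98 and 101.1 CPM against 21.7 and 10.2, but 9 and 8 members fell short of 20 CPM.

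*Id2*, an inhibitor of basic helix-loop-helix factors, reached 1421 and 1735 CPM in members against 249.4 and 203.2, and *Zfp42*, the Rex1 zinc finger gene, 106.7 and 109.2 against 12.5 and 16. *Cdx2*, the caudal homeobox gene that specifies trophectoderm, was 3.21-fold and 3.11-fold higher, short of the 4-fold limit, at 109.4 and 116.9 CPM. *Tead4* (log2 ratios 2.38 and 1.49), *Gata3* (1.89 and 1.24), *Klf5* (1.40 and 1.79), *Elf3* (1.67 and 1.59) and *Sox2* (1.70 and 1.71) were higher on both plates by less than 4-fold on at least 1. *Elf3* was again uneven, since 1 cell held 63.2% of its reads among members of the embryo 5 plate.

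*Eomes*, a T-box factor of both trophoblast and early mesendoderm, was at a like level in members (160.04 and 139.6 CPM) and other cells (165.99 and 160.1 CPM). Epiblast cells of the same plates had 97.2 and 281.7 CPM of it. *Hand1*, which acts in trophoblast giant cells and extraembryonic mesoderm, stood at 68.1 and 87.4 CPM against 56.7 and 117.7. *Sall4* was lower by less than 4-fold (-1.06 and -1.18), and *Tfap2a*, the AP-2 gene not tested for want of reads, had 0.167 and 0.491 CPM.

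**Figure D4:**
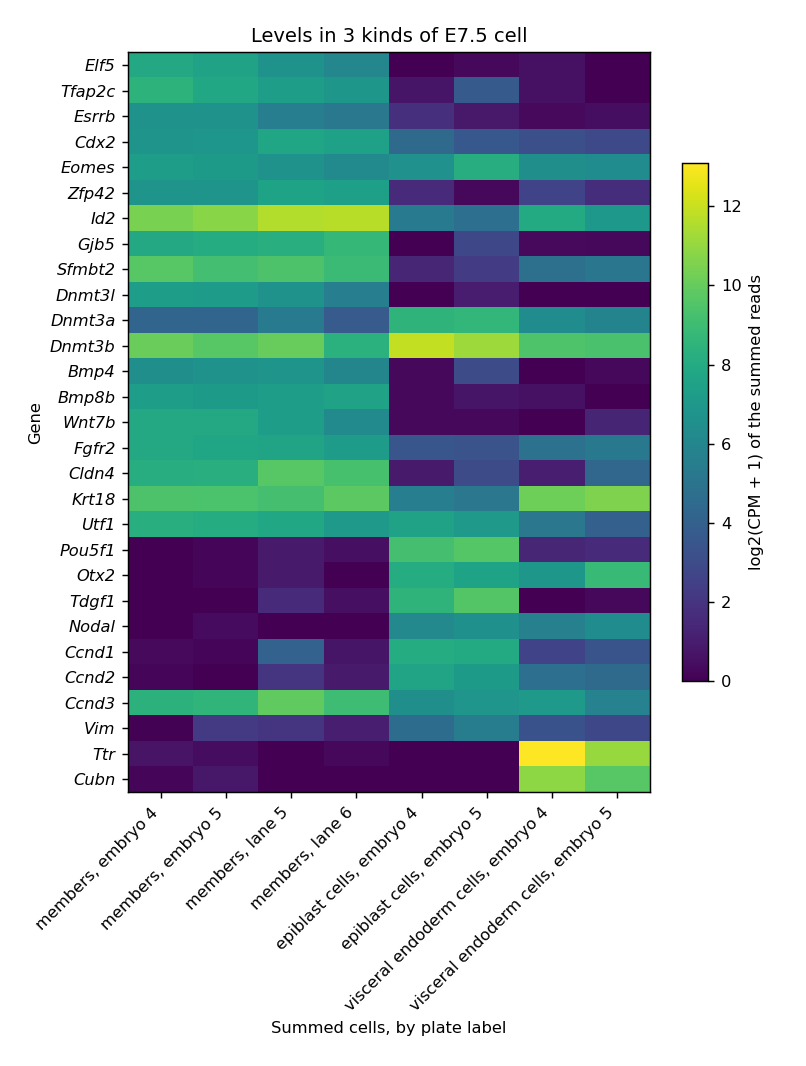
Colour gives the log2(CPM + 1) of summed reads for 29 genes (rows) in members of 4 plates, epiblast cells of 2 plates and visceral endoderm cells of 2 plates (columns). *Elf5*, *Dnmt3l*, *Bmp8b*, *Wnt7b* and *Cldn4* are high in the member columns alone, *Utf1* is shared with epiblast cells and *Krt18* with visceral endoderm cells, and *Ccnd1*, *Ccnd2*, *Pou5f1* and *Tdgf1* are near 0 in members of the embryo 4 and 5 plates.

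Genes of the exchange between epiblast and extraembryonic ectoderm fell on both sides. Of 19 genes 18 were tested, 4 were at least 4-fold higher on both plates (*Bmp8b*, *Pcsk6*, *Wnt6* and *Wnt7b*) and 5 lower (*Nodal*, *Tdgf1*, *Fgf5*, *Fgf8* and *Wnt3*), with median ratios of -0.32 and -0.09. *Bmp8b*, a BMP ligand of the extraembryonic ectoderm needed for germ cell induction, was at 160.5 and 139.6 CPM in members against 24.6 and 13.4 in other cells. It was at 20 CPM or more in 43 of 45 and 27 of 30 members, and at 0.231 and 0.643 CPM in epiblast cells. *Bmp4*, the better known ligand of this tissue, was at 89.9 and 99.9 CPM against 60.1 and 72.9, log2 ratios of 0.57 and 0.45, while epiblast cells had 0.231 and 7.07 CPM. Other cells on these plates therefore held *Bmp4* that was not in the cells named epiblast.

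*Wnt7b*, a ligand required for fusion of the chorion and allantois, was 10.3-fold and 10-fold higher at 239.6 and 235.99 CPM, and was seen at 20 CPM in 44 of 45 and 28 of 30 members. *Wnt6* stood at 65.8 and 68.4 against 11.4 and 8.85 CPM. *Pcsk6*, the PACE4 convertase that matures Nodal precursor, had 39.6 and 35.8 against 8.44 and 7.54 CPM, whereas *Furin*, the convertase with the overlapping role, had 17.3 and 13.6 against 30.9 and 15.1. The ligand itself and its co-receptor were nearly without reads in members. *Nodal* had 0.0334 and 0.307 CPM against 33.1 and 45.3, and *Tdgf1* 1 read among the 29917972 of the embryo 4 members and none among the 16292761 of the embryo 5 members, against 219.8 and 379.1 CPM in other cells.

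*Fgfr2*, the FGF receptor of trophoblast, was 4.84-fold and 3.38-fold higher in members (235.7 and 207.2 CPM against 47.9 and 60.7), past 4-fold on the embryo 4 plate alone. *Fgfr1* did not differ in this way (74.6 and 102.3 against 105.4 and 114.1 CPM). The ligand genes *Fgf5* (0 and 0.0614 CPM) and *Fgf8* (0 and 0.0614 CPM) were at or near 0 in members, against 105.4 and 94.9, and 28.3 and 50.2 CPM in other cells. *Fgfbp1*, an extracellular FGF carrier, was at 286.6 and 204.2 against 27.5 and 52.6 CPM, and *Dusp6*, a feedback phosphatase of this pathway, was alike (87.8 and 141.5 against 101.9 and 146.4).

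All 16 epithelial and keratin genes were tested, 2 were higher (*Cldn3* and *Cldn4*) and 3 lower (*Vim*, *Cdh2* and *Zeb2*), with median ratios of 0.38 and 0.20. The tight junction genes *Cldn4* (280.4 and 288.1 CPM against 30.9 and 28.1) and *Cldn3* (93.6 and 119.3 against 14.8 and 10.6) separated members from both epiblast and visceral endoderm cells, where *Cldn4* was at 0.925 and 7.07, and 1.12 and 18.8 CPM. Other junction genes were shared with the rest of the plate, such as *Cldn6* (ratios 0.03 and 0.35) and *Epcam* (0.41 and 0.47). The intermediate filament gene *Vim* was at 0.0668 and 3.74 CPM against 98.7 and 129.9, and 1 cell held 98.4% of the reads on the embryo 5 plate. *Zeb2*, a repressor of *Cdh1*, was at 0.0334 and 0.0614 CPM against 43.8 and 49.6, and *Cdh1* itself at 521.6 and 370.5 against 272.8 and 230.4. *Krt8* and *Krt18*, the simple epithelial keratins, did not differ from other cells by 4-fold, and visceral endoderm cells had more of *Krt8* (888.9 and 1766 CPM against 442.2 and 450.8 in members).

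All 10 DNA methylation and demethylation genes were tested, with *Dnmt3l* the only one at least 4-fold higher on both plates and *Dnmt3a* the only one lower, and median ratios of -0.04 and -0.10. *Dnmt3l*, the catalytically inactive cofactor, had 160.9 and 148.7 CPM in members and 18.6 and 18.8 in other cells, 8.28-fold and 7.57-fold. It was at 20 CPM or more in 44 of 45 and 26 of 30 members, and at 0 and 1.07 CPM in epiblast cells. *Dnmt3a*, a de novo methyltransferase, stood at 18.6 and 18.2 CPM in members against 145.8 and 125.9 in other cells and 358.1 and 396.9 in epiblast cells. *Dnmt3b*, the other de novo enzyme, was level with other cells (1101 and 819.6 against 1153 and 824.9 CPM) and below epiblast cells (3706 and 2318 CPM). The maintenance genes *Dnmt1* (ratios -0.02 and -0.09) and *Uhrf1* (0.33 and -0.01) were alike.

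The demethylation genes differed by less than 4-fold. *Tet1* was at 114.1 and 76.5 CPM against 137.04 and 92.3, *Tet2* at 26.4 and 11 against 23.1 and 17.6, and *Tet3* at 22.4 and 16.3 against 41.4 and 27.7. Reads per gene do not show whether the deleted exons of the injected line were covered.

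Among 23 imprinted genes 18 were tested, *Sfmbt2* alone was at least 4-fold higher and *Meg3* alone lower on both plates, and the median ratios were -0.22 and 0.03. *Sfmbt2*, a Polycomb-group gene expressed from the paternal copy in trophoblast, reached 825.5 and 580.4 CPM in members against 101.7 and 92.6, and 1.62 and 3.86 in epiblast cells. *Gab1* (2.52 and 1.86) and *Jade1* (1.33 and 1.38), which are likewise known for imprinting that depends on histone marks in the placenta, were higher by less. *Meg3*, a maternally expressed noncoding RNA, was at 39.7 and 43.8 against 263.6 and 183.2 CPM, *Peg3* at 686.2 and 644.7 against 2151 and 1974, and *Snrpn* at 64.6 and 62 against 198.4 and 270.8. The growth regulators *H19* (0.50 and 1.34), *Phlda2* (0.38 and 0.26) and *Igf2r* (0.10 and -0.11) were within 4-fold on both plates.

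Of 13 further Rhox, Xlr and related genes of the X chromosome, 4 had enough reads and none passed 4-fold. *Trap1a*, an X-linked antigen gene, was 3.08-fold and 3.78-fold higher at 402.7 and 499.98 CPM, and was present at 20 CPM in all 75 members. The remaining Rhox genes listed had at most 1.74 CPM in the members of either plate.

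Genes of later placental lineages mostly had few reads. Of 15 listed 6 were tested, 1 was higher (*Gjb5*) and 2 lower (*Flt1* and *Rtl1*), with median ratios of 1.06 and 0.31. The gap junction gene *Gjb5* was at 240.4 and 270.4 CPM against 17.8 and 33.4, and reached 20 CPM in 43 of 45 and 30 of 30 members. *Tpbpa* of the spongiotrophoblast, *Prl3d1* of giant cells and the syncytin gene *Synb* had no reads in members of either plate, which by a limit of 3 reads allows up to 0.1 and 0.184 CPM. *Gcm1*, a syncytiotrophoblast regulator, had 2.97 and 0 CPM. *Plac1* was carried by few cells, 5 and 1 of them at 20 CPM, and on the embryo 5 plate that single cell held every *Plac1* read of the members.

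Markers of other cell types were low, with exceptions. Of the 8 epiblast markers, all tested, 6 were at least 4-fold lower on both plates, with median ratios of -5.03 and -5.01. *Pou5f1* had 1 and 3 reads in all members of the plates against 172.9 and 188.1 CPM in other cells, and *Otx2* 0 and 0.123 CPM against 117.6 and 139.3. *Utf1*, a chromatin-associated gene listed as an epiblast marker, went the other way. It was at 297.5 and 272.3 CPM in members, 74.4 and 52.9 in other cells, and 186.2 and 130.9 in the epiblast cells it helped to select. Each of the 45 members of the embryo 4 plate (61.5 to 637.4 CPM) and 29 of 30 on the embryo 5 plate had 20 CPM or more.

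The 8 visceral endoderm markers were all at least 4-fold lower on both plates, with a summed level of 9.09 and 20.3 CPM in members against 6425 and 1364 CPM in other cells. Of the 5 streak and mesoderm markers tested 4 were lower, and *Mesp1* had no reads in members of either plate against 54.9 and 81.6 CPM. Of the 3 blood and endothelial markers tested *Kdr* and *Tal1* were lower, and *Gata1*, the erythroid GATA factor, was higher, past 4-fold on the embryo 4 plate alone, at 35.9 and 22.8 CPM against 4.99 and 8.58, while the embryonic globin genes *Hba-x* and *Hbb-bh1* were at 0 and 0.307, and 0 and 0 CPM. *Kdr* was not lower than in the epiblast cells, which had no read of it beside 3.64 and 7.37 CPM in members, and the same held for *Amn* (4.58 and 10.7 CPM) and *Ttr* (0.602 and 0.368 CPM) among the endoderm markers. *Gata1* was at 20 CPM in 21 of 45 and 9 of 30 members. None of the 6 decidua and immune markers had enough reads to be tested, with sums of 0.668 and 0.859 CPM in members. Of the 6 extraembryonic mesoderm markers 3 were tested and none passed 4-fold, with median ratios of 0.44 and 0.12. This list as a whole was not low in members, with sums of 342.3 and 290.2 CPM against 151.6 and 236.5 in other cells. *Tbx4* and *Pitx1* were at 0.0668 and 0.798, and 0.1 and 2.09 CPM.

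Among cell cycle genes a pair of D-type cyclins was lower. All 11 listed were tested, none was 4-fold higher, 3 were lower (*Ccnd1*, *Ccnd2* and *Cdkn1a*) and the median ratios were 0.26 and 0.09. The D-type cyclins *Ccnd1* (0.267 and 0.123 CPM against 161.03 and 172.8) and *Ccnd2* (0.134 and 0 against 260.8 and 366.5) were almost without reads, and no member of either plate reached 20 CPM of them. *Ccnd3*, the third of these cyclins, was at 336.9 and 372.4 against 148.7 and 152.7 CPM, 2.26-fold and 2.43-fold, and all 75 members had it at 20 CPM. *Ccne1*, which acts at the start of S phase, was 1.7-fold and 2.07-fold higher, and *Cdkn1a*, the p21 inhibitor, was at 4.31 and 4.66 against 43.2 and 34.3 CPM. *Mki67* (0.32 and 0.22), *Top2a* (-0.13 and -0.45) and *Mcm5* (0.26 and 0.09) were within 4-fold.

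Among the genes with the largest ratios, taken on the plate where each was nearer 0, were *Rhox6*, *Rhox9*, *Ascl2*, *Tfap2c*, *Wnt7b*, *Cldn4*, *Tex101*, *Itgb4*, *Ldoc1*, *Sohlh2*, *Vgll1*, *Tfeb*, *Nexmif* and *Slc30a2*. *Itgb4*, the integrin subunit of hemidesmosomes, was at 29.8 and 26.3 CPM against 1.37 and 1.27. *Tfeb*, a lysosomal regulator needed for the vascularisation of the placenta, was at 47.2 and 64.7 against 4.19 and 4.86, with 37 of 45 and 23 of 30 members at 20 CPM. *Nexmif* (151.6 and 121.8 against 17.7 and 11.9 CPM) and the zinc transporter gene *Slc30a2* (43.3 and 56.5 against 4.46 and 3.13) were at 20 CPM in 40 and 26, and 30 and 18 members.

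Others of these genes came from a minority of members. *Vgll1*, a cofactor of TEAD proteins, reached 20 CPM in 10 of 45 and 7 of 30 members, *Tex101* in 10 and 6, and *Sohlh2*, a germ-cell helix-loop-helix gene, in 18 and 5. *Ldoc1*, a gene derived from a retrotransposon that acts in placental endocrine cells, was at 59.9 CPM on the embryo 4 plate and 21 on the embryo 5 plate.

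The 10 named genes with the smallest ratios were *Gpc3*, *Apob*, *Ttr*, *Cer1*, *Ccnd2*, *Tdgf1*, *Spink1*, *Lhx1*, *Sox11* and *Prtg*. *Gpc3*, a heparan sulphate proteoglycan on the cell surface, was at 0.501 and 2.27 CPM in members, 1275 and 1134 in other cells of these plates and at least 47.6 in the other cells of all 11 plates. *Prtg*, a membrane protein of the early epiblast and neural plate, was at 2.24 and 3.07 against 836.6 and 748.2 CPM, and never below 210.6 in the other cells of a plate. *Cer1*, an inhibitor of Nodal, was at 0.0334 and 0.184 CPM in members and *Lhx1* at 0.201 and 0.184.

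Members varied among themselves, and some genes rose or fell with *Esrrb* on both plates while others did so on 1 plate only. Pearson's r was taken across the 45 and across the 30 members on log2(CPM + 10), leaving out the rule's genes, with *Esrrb* as the reference, a gene chosen after its values were seen. These cells share a plate, and r is given as a description without a p. *Esrrb* ran from 0 through a median of 93.4 to 301.9 CPM on the embryo 4 plate and from 0 through 83.6 to 424.1 on the embryo 5 plate. Beside the 10033 genes tested, 51 genes followed it with r of at least 0.5 on both plates, and 5 opposed it at -0.5 or below. These counts depend on the reference gene, and nothing is inferred from them.

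Among those that followed were *Bmp4* (r of 0.65 and 0.83), the FGF-responsive ETS gene *Etv5* (0.80 and 0.66), *Dusp6* (0.63 and 0.67), the co-repressor gene *Ctbp2* (0.75 and 0.81), the nuclear receptor gene *Nr0b1* (0.70 and 0.64), *Pou3f1* (0.67 and 0.64) and *Mest* (0.64 and 0.69). *Bmp4* reached 20 CPM in 27 of 45 and 18 of 30 members, and its summed level joined members with much of it (647.7 and 472.9 CPM at most) to members with none. Those that opposed it included *Krt18* (-0.67 and -0.74), *Krt8* (-0.67 and -0.72), the tetraspanin gene *Tspan3* (-0.59 and -0.54) and the AP-1 gene *Fosb* (-0.62 and -0.51). The TEAD cofactor gene *Vgll1* (-0.70 and -0.47), *Gata2* (-0.47 and -0.63) and *Arid3a* (-0.64 and -0.47) reached -0.5 on 1 plate each. *Krt18* ran from 184.1 through 573.7 to 2371 CPM and from 93.5 through 450.9 to 2982 CPM on the plates.

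*Phlda2*, an imprinted growth inhibitor of the placenta, opposed *Esrrb* on the embryo 4 plate (-0.72) but hardly on the embryo 5 plate (-0.07), where r was -0.38 without the 1 cell described next. *Cdx2* was nearly unrelated to *Krt18* on the latter (-0.04). The correlation of *Esrrb* with log2 reads was -0.05 and 0.05, and with the genes detected after thinning 0.04 and 0.46. On the embryo 5 plate cells with more detected genes therefore also had more *Esrrb*, and the part of this in the other correlations was not tested. Without the 1 cell described next, r of *Esrrb* on that plate was -0.76 with *Krt18* and 0.82 with *Bmp4*.

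**Figure D5:**
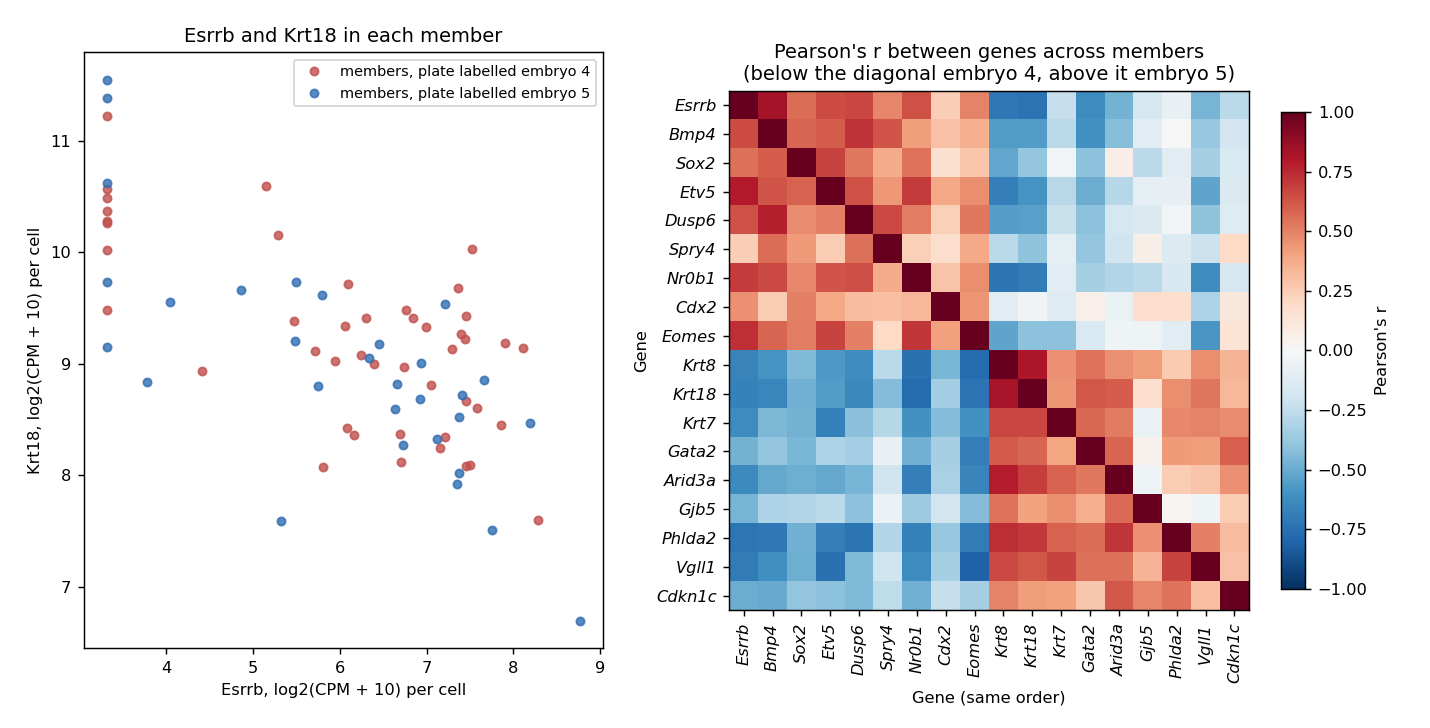
Left, each member of the embryo 4 plate (red, 45 cells) and embryo 5 plate (blue, 30 cells) at its log2(CPM + 10) of *Esrrb* (x axis) and *Krt18* (y axis). Right, Pearson's r between 18 genes across the members, with the embryo 4 plate below the diagonal and the embryo 5 plate above it, where *Esrrb*, *Bmp4*, *Etv5* and *Dusp6* form a block of positive r and oppose *Krt8* and *Krt18* on both plates.

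Between the members of both plates, 17 genes (0.169%) were at least 4-fold higher on the embryo 4 plate and 63 (0.628%) on the embryo 5 plate. With 1 plate each there is no test. The 8 largest on the embryo 5 plate with at least 20 CPM were *Lama1*, *Srgn*, *Fst*, *Aqp8*, *Col4a1*, *Sox7*, *Col4a2* and *Gata4*, of which the laminin, the type IV collagens, *Sox7* and *Gata4* are known from basement membrane-secreting endoderm. *Lama1* was at 1 and 158.1 CPM and *Col4a1* at 11.8 and 324.1 CPM. A single cell held 97.7% of the *Lama1* reads, 97.2% of *Col4a1* and 89.2% of *Gata4* on that plate.

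That cell had *Rhox5* at 596.8 CPM, *Rhox6* at 82.7 and *Rhox9* at 59.4, no read of *Elf5*, *Ascl2*, *Cdx2*, *Eomes*, *Esrrb* or *Tfap2c*, and *Lama1* at 6500 CPM. It carried 3 of the 6 visceral endoderm markers at 20 CPM, met the rule through Rhox genes only and went against the label of extraembryonic ectoderm. Leaving it out, which was chosen after its values were seen, brought the genes 4-fold apart between plates from 80 to 35 and the share of genes 4-fold lower in members from 5.88% to 6.22%. On the embryo 4 plate only *Zfp654* (21.2 and 2.46 CPM) and the ferritin-like *Fthl17a* (21.3 and 3.5 CPM), 1 of several similar copies on the X chromosome, met the same limits.

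Libraries of the embryo 5 plate stood apart by well row. The mitochondrial ribosomal RNA *mt-Rnr2*, chosen after its values were seen, had 837.1 and 9509 CPM in members and 3633 and 6715 in other cells. On the embryo 5 plate the 17 members of well rows A to E had 410.1 to 1844 CPM (median 850.3) and the 13 of rows F to H 813.5 to 46538 CPM (median 23001), of which 11 had at least 10000 CPM. Of the other cells 1 of 38 and 13 of 20 did in the same rows, and no member of the embryo 4 plate exceeded 1914 CPM. Without rows F to H, chosen after the data were seen, 1.01% of genes tested were 4-fold higher in members, 5.44% lower and 1.77% apart between plates, where 17 members include the *Lama1* cell. The part of these rows in the other results was not tested.

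Lane plates 5 and 6 held 10 members. Their summed reads held *Elf5* at 102.4 and 66.6 CPM, *Tfap2c* at 155.6 and 119.1, *Dnmt3l* at 99.6 and 47.5, *Bmp8b* at 159.3 and 184.97 and *Utf1* at 227.6 and 133.4. Each of these was above the highest level of the other cells on any of the 11 plates except *Utf1* on lane plate 6, whose highest level there was 201.9 CPM. *Elf5* was used by the rule, and cells chosen by it were set beside whole plates of mixed cells, so this is a description only. Single members lacked some of these genes, as 1 member of lane plate 6 had no read of *Dnmt3l* or *Utf1* and another had *Elf5* at 7.65 CPM. *Id2* (3023 and 3229 CPM) and *Cldn4* (823.3 and 623.8) exceeded the levels of both main plates, which with 5 cells a plate was not tested.

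The remaining 2 members stood apart. The member of the plate labelled embryo 1 had no *Elf5* or *Rhox5* read and met the rule with *Rhox6* at 22.7 CPM, *Rhox9* at 41.3 and *Wfdc2* at 22.7, while it carried *Cdx2* at 337.2, *Bmp4* at 526.4 and *Pou5f1* at 131.9 CPM and no *Tfap2c* or *Utf1*. It therefore also went against the label. The member of lane plate 4 had *Rhox6* at 897.6 and *Tfap2c* at 263.2 CPM with *Elf5* at 13.2, *Cdx2* at 2.63 and *Krt8* at 1419 CPM. Its *Ascl2* was at 157.9 CPM with no *Esrrb* or *Eomes* read, so the label is less sure for it too.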

How the data were processed

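RNA of single cells was read by Smart-seq2 as 75 bp single-end reads. Per the labels and the study's methods, the authors aligned reads with HISAT2 2.1.0 to GRCm38 and deposited featureCounts counts per Ensembl gene (55487 genes, 1824 cells). Gene IDs were paired with symbols from a reference table of gene names (55141 matched), and no column was left out. Cells were grouped by the plate in their names. Counts were summed over cells per plate, scaled to CPM and compared as log2 ratios after adding 1 CPM, among genes at 10 CPM or more in some group, without a test. A rule gene counted at 20 CPM. The genes named are those of the rule, those of fixed lists, the 15 largest and 10 smallest ratios, and up to 8 a direction between plates, leaving out Gm and Rik symbols and 1 gene that is not reported here. Members, markers and lists were chosen with earlier results of these data known. Alternatives included edgeR 4.0.16 and DESeq2 1.42.0 scaling. Other steps used numpy 2.4.6 and pandas 2.3.3 in Python.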

Additional observations from a re-analysis of the deposited data

How the results depend on the processing

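Members, ratios and shares of genes were recomputed under other rules, scalings, filters and comparison cells, without a test. Shares of genes are percent of genes tested, higher or lower by at least 4-fold in members, beside 1.13% and 5.88% as reported. With rule genes at 50 CPM there were 53 members (32.97% and 19.3% of the embryo 4 and embryo 5 plates) and 0.0802% of genes were higher. With at least 2 of 6 genes the embryo 5 share was 48.9%, with 2.14% higher and 3.74% lower. With at least 4 of 6 the shares were 32.97% and 22.7%, with 0.151% higher. With at least 2 of *Elf5*, *Ascl2* and *Wfdc2* they were 25.3% and 22.7%, with 0.122% higher and 3.30% lower. Stricter rules place cells with the same genes among the comparison cells by construction. Adding 5 CPM left 0.538% higher and 2.94% lower, and a filter at 50 CPM 1.16% and 4.07% of fewer genes. Against all other E7.5 cells pooled 2.93% were higher, against epiblast cells of the same plates 4.36%, and against cells with 0 or 1 rule genes, chosen after seeing the data, 2.23%. Leaving out 1 plate each gave 42 to 86 members and 1.92% to 1.97% higher. Between plates 2.46% of genes were 4-fold apart with 0.1 CPM added, 0.150% with 5 CPM, 0.294% with no filter, 0.349% without the cell lacking *Cdx2*, *Esrrb* and *Tfap2c* and 1.77% without well rows F to H of the embryo 5 plate, both chosen after seeing the data, beside 0.797% as reported. Without thinning, members had 9193 and 8626 detected genes. Scaling by edgeR or DESeq2 left each of these shares within 1.5 times.

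Against epiblast cells the mean log2 ratio turned positive for *Ttr* (0.57), *Apoa1* (0.026), *Apoa4* (0.13), *Amn* (3.01), *Afp* (0.52), *Cubn* (0.53), *Rbp4* (0.49), *Kdr* (2.64), *Apob* (0.59) and *Spink1* (1.04). For *Amn* and *Kdr*, members held reads that the epiblast cells lacked, and the remaining ratios were at most 1.04. Ratios were taken within each plate and called on both. No paired test was run, as no result comes from a test. With 2 plates holding enough members, differences between embryos, litters and sorts cannot be told apart from plate.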
